A study of Panax japonicus with 15 samples.

Results

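A group of 187 transcript clusters in the fruit wall of Panax japonicus stood at even, high levels in the periods G, Y and R and at low levels in the periods P and B. They were 187 of 462117 transcript clusters in the deposited table. The members were selected on the expression values themselves, over all 15 libraries. A member had at least 5 TPM in every G, Y and R library, and its lowest value there was at least 2 times its highest value in any P or B library. Its G, Y and R period means also lay within 0.75 of each other on the log2(TPM + 1) scale. TPM is a level corrected for transcript length and expressed as a share of each library. Because these values chose the members, the contrast of G, Y and R with P and B is given as a description, with no test.

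Panax japonicus is a relative of ginseng grown as a medicinal herb, and the pericarp is the fruit wall that remains once the seed is removed. Each of the 5 periods, G, Y, R, P and B, was represented by 3 pericarp libraries that the protocol calls biological replicates. All carried the same tissue label and no treatment other than the period, and no order, colour name or control is given for the letters. How the replicates relate to plants, fruits or days is not stated, so p-values measure only the spread between these samples. The libraries listed between 97466 (P replicate 1) and 187300 (P replicate 3) transcript clusters above 0, and TPM does not preserve how many reads stand behind a value.

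Fleshy fruits generally change colour as chlorophyll is broken down and as carotenoids or anthocyanins accumulate, and these changes go together with wide changes in the mRNA pool of the pericarp. A transcript cluster is a group of assembled transcripts treated as 1 expressed unit. The table gives identifiers without gene names or sequences, so no function, pathway or sequence is attached to any member here. In bulk tissue, fewer cells of a type and less RNA per cell cannot be told apart, and a level in TPM is always relative to the rest of the library.

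The first condition of the rule, at least 5 TPM in all 9 G, Y and R libraries, was met by 13582 transcript clusters. Of these, 265 also met the ratio of 2, and 187 of the 265, or 70.6%, were even enough across G, Y and R to be members. Evenness was common among abundant transcript clusters in general: 9808 of the 13395 others at 5 TPM or more in G, Y and R, or 73.2%, lay within 0.75 as well. Of the 78 left out as uneven, R was the lowest of G, Y and R in 63 and Y the highest in 44. The opposite arrangement, at least 5 TPM in every P and B library and at least 2 times the highest G, Y or R value, was found for 64, of which 59 had P and B means within 0.75. The mirrored rule asks for the lowest of 6 values against the highest of 9, so both counts come from unlike conditions and were not tested against each other.

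**Figure D1:**
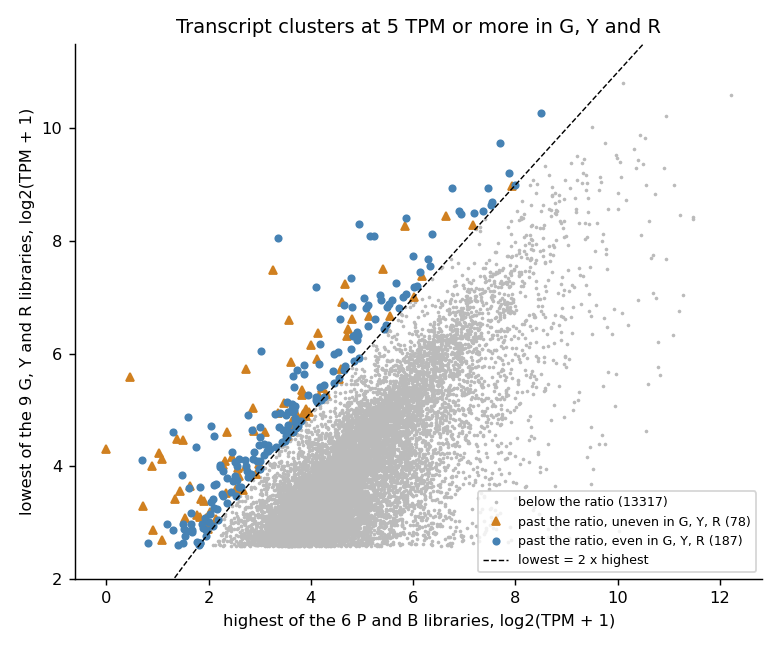
Lowest level over the 9 G, Y and R libraries against highest level over the 6 P and B libraries, both as log2(TPM + 1), for the 13582 transcript clusters at 5 TPM or more in G, Y and R. The 187 members (blue circles) and 78 uneven ones (orange triangles) lie above the dashed line, which marks a ratio of 2, and most members lie close to it.

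At each limit, the nearest transcript cluster inside and the nearest outside were close in value. Cluster-64249.186858 entered with a lowest G, Y or R value of 5.07 TPM, whereas Cluster-64249.83856 was left out at 4.92 TPM. Cluster-64249.139536 was inside with a ratio of 2.01 (35.1 TPM at the lowest in G, Y and R and 17.5 TPM at the highest in P and B), and Cluster-64249.130335 was outside at 2.00 (21.2 and 10.6 TPM). On evenness, Cluster-64249.175130 was inside with a span of 0.748 between its period means and Cluster-64249.192626 outside with 0.751. These were picked as the nearest cases, so they cannot show how gradual the edges are. For these cases, membership rests on small differences.

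The members ranged widely in abundance. Their mean over the 9 G, Y and R libraries ran from 6.43 to 1940 TPM with a median of 36.6 TPM and quartiles of 19.2 and 105 TPM. Over the 6 P and B libraries the same transcript clusters had means from 0.150 to 215 TPM, with a median of 6.30 TPM. Of the 187, 8 reached 500 TPM or more in G, Y and R, 41 lay from 100 to 500, 28 from 50 to 100, 61 from 20 to 50, 37 from 10 to 20 and 12 below 10 TPM. The signal was shared unevenly: the top 10 held 37.0% and the top 20 held 55.6% of the members' summed TPM in G, Y and R, and the single highest held 9.10%.

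Taken as a share of the library, the members held 2.14% ± 0.232 of all TPM in G, 2.40% ± 0.224 in Y and 1.86% ± 0.0729 in R, against 0.311% ± 0.0765 in P and 0.332% ± 0.0813 in B (SD, n = 3 each). Single libraries ran from 1.98 to 2.40% in G, from 2.16 to 2.61% in Y and from 1.78 to 1.93% in R. The P libraries ran from 0.225 to 0.372% and the B libraries from 0.271 to 0.424%. G and Y overlapped in this share, each R library lay below each G and Y library, and P and B overlapped. The median member stood at 36.6 ± 2.39 TPM in G, 39.0 ± 3.67 TPM in Y and 34.5 ± 0.528 TPM in R, against 5.71 ± 1.28 TPM in P and 5.84 ± 1.73 TPM in B (SD over the 3 library medians of each period).

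**Figure D2:**
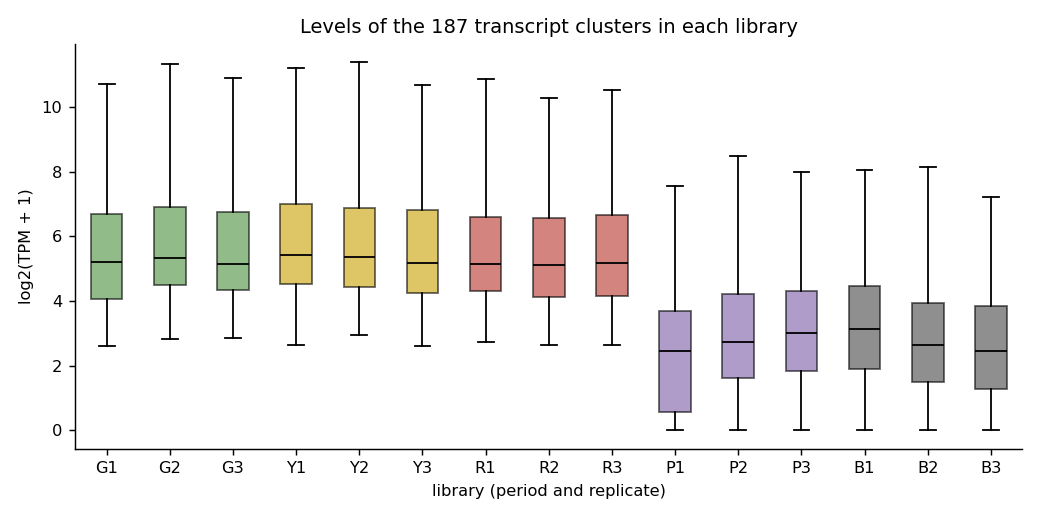
Levels of the 187 transcript clusters as log2(TPM + 1), 1 box per library: the line is the median, the box the quartiles and the whiskers the lowest and highest member. The 9 G, Y and R boxes sit at one height, with medians from 34.1 to 42.0 TPM, and the P and B boxes lie lower, with medians from 4.45 to 7.79 TPM.

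The fold between the mean over the 9 G, Y and R libraries and the mean over the 6 P and B libraries had a median of 6.91, quartiles of 4.85 and 9.95, and a range from 2.98 to 135. It was at least 4 for 167 members, at least 8 for 75 and at least 16 for 21. By abundance class, its median was 6.60 for the 8 at 500 TPM or more, 6.43 for the 41 from 100 to 500 TPM and 5.75 for the 28 from 50 to 100 TPM. It was 6.16 for the 61 from 20 to 50 TPM, 9.04 for the 37 from 10 to 20 TPM and 7.46 for the 12 below 10 TPM. The stricter ratio of the lowest G, Y or R library to the highest P or B library had a median of 2.66 and reached 4 in 32 members and 10 in 5. The moderated F test of limma over the 5 periods called all 187 at an adjusted p under 0.05, beside 7.44% of all 138664 tested; the rule chose on the same differences, so nothing is read from that count.

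Most members were low but detected in P and B. Of the 187, 140 were above 0 in all 6 P and B libraries and 113 were at 1 TPM or more in all 6. None was listed at 0 in all 6, and 47 were listed at 0 in 1 to 4 of them. Zeros fell unevenly over the libraries, with 35 members at 0 in P replicate 1, 19 in P replicate 2 and 1 in P replicate 3, against 3, 12 and 16 in B replicates 1, 2 and 3. P replicate 1, which had the most zeros among members, also had the fewest transcript clusters above 0 in the whole table; the part of detection in these zeros was not tested.

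The most abundant member was Cluster-64249.146080. It stood at 1697, 2588 and 1896 TPM in G replicates 1, 2 and 3, at 2391, 2672 and 1633 TPM in Y and at 1871, 1235 and 1474 TPM in R. In P it had 34.7, 359 and 197 TPM and in B 264, 285 and 148 TPM. G, Y and R overlapped, and the P libraries spread so widely that they lay on both sides of B. Period means were 2060 ± 467, 2232 ± 537 and 1527 ± 322 TPM in G, Y and R, against 197 ± 162 TPM in P and 232 ± 73.9 TPM in B (SD, n = 3 each).

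Cluster-64249.115696 was second in abundance. It had 1355, 1145 and 1000 TPM in G, 1384, 1256 and 1245 TPM in Y, and 887, 858 and 927 TPM in R. Values of 127, 175 and 206 TPM in P and of 92.3, 45.2 and 44.1 TPM in B followed, all 3 P libraries being above all 3 B libraries. Each R library lay below each G and Y library, at a mean of 891 ± 34.6 TPM in R against 1167 ± 178 TPM in G and 1295 ± 77.2 TPM in Y (SD, n = 3 each).

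The clearest separation between the 9 and the 6 libraries, among members whose highest P or B value was at least 1 TPM, belonged to Cluster-64249.217928. It stood at 525, 376 and 268 TPM in G, 508, 503 and 397 TPM in Y and 273, 265 and 306 TPM in R. P libraries had 9.31, 7.22 and 9.06 TPM and B libraries 1.44, 0.480 and 0.430 TPM. Its lowest G, Y or R value was 28.4 times its highest P or B value, and its P and B values did not overlap. The next by this measure was Cluster-64249.75758, with 23.5, 45.0 and 26.9 TPM in G, 35.3, 31.2 and 43.0 TPM in Y and 26.9, 24.7 and 29.7 TPM in R. It was listed at 0, 0 and 1.47 TPM in P and stood at 0.0900, 0.580 and 0.360 TPM in B, so its ratio of 16.0 was set by P replicate 3 alone.

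A ratio of 10 or more was also found for Cluster-64249.185567, Cluster-64249.61495 and Cluster-64249.61498, which are named here after their values were seen. Cluster-64249.61498 had the largest fold between means, 135, with 19.6, 16.2 and 18.4 TPM in G, 19.1, 19.7 and 19.0 TPM in Y, and 23.6, 26.1 and 20.5 TPM in R. It was listed at 0, 0 and 0.620 TPM in P and at 0, 0 and 0.280 TPM in B, so this fold rests on values near 0. Cluster-64249.61495 averaged 50.4 ± 19.2 TPM in G, 51.9 ± 12.4 TPM in Y and 39.5 ± 5.41 TPM in R, against 0.423 ± 0.440 TPM in P and 1.27 ± 0.689 TPM in B (SD, n = 3 each). Only Cluster-64249.61498 and Cluster-64249.61271 stayed under 1 TPM in all 6 P and B libraries, and Cluster-64249.61271, at 5.20 to 12.3 TPM in G, Y and R, was the only member listed at 0 in all 3 B libraries. At the other end, Cluster-64249.92558 had the smallest fold, 2.98, with 36.5 to 51.6 TPM in G, Y and R and 11.4 to 18.1 TPM in P and B.

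The member whose abundance was the median of the 187, Cluster-64249.116190, shows the usual shape. It had 37.1, 44.8 and 36.7 TPM in G, 45.3, 38.8 and 35.9 TPM in Y and 29.0, 31.7 and 30.4 TPM in R, against 5.62, 6.65 and 10.4 TPM in P and 7.19, 5.99 and 5.24 TPM in B. Its means were within 0.38 of each other over G, Y and R on the log2(TPM + 1) scale, and P and B overlapped.

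**Figure D3:**
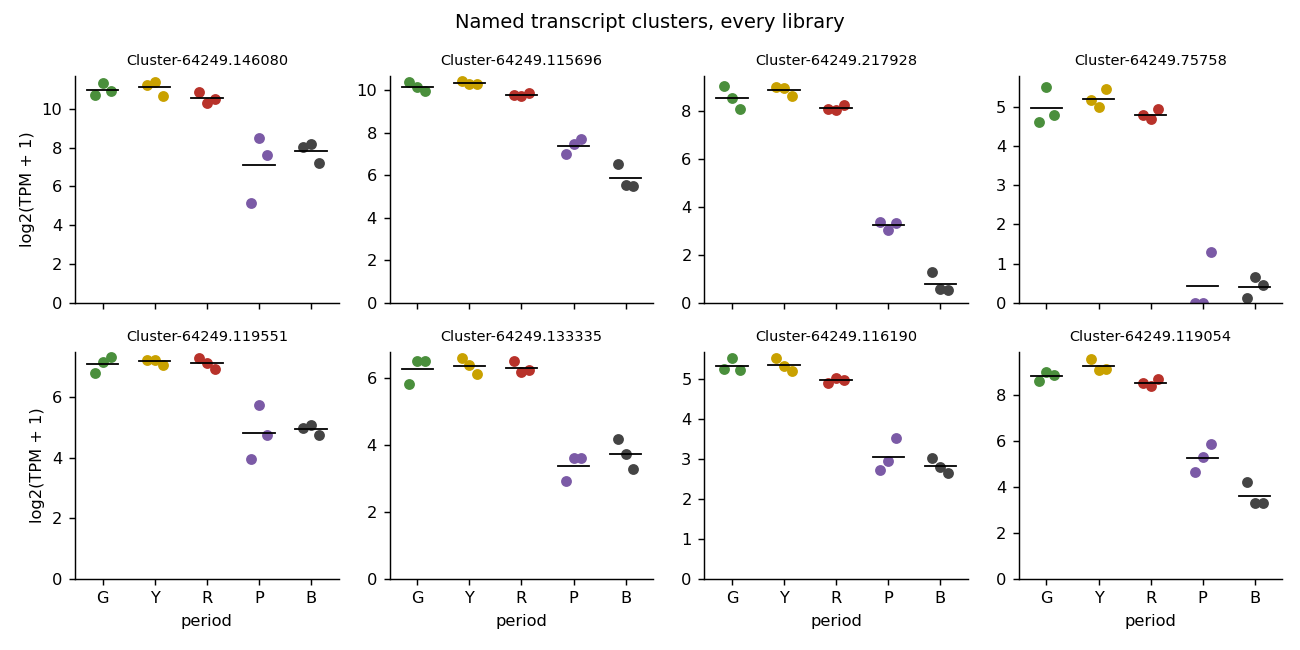
Levels of 8 named transcript clusters as log2(TPM + 1) in every library, by period; points are the 3 libraries of a period in replicate order, black lines their means, and each panel has its own vertical scale from 0. In all 8 the G, Y and R points stand together above the P and B points, and in Cluster-64249.217928, Cluster-64249.115696 and Cluster-64249.119054 the P points stand above the B points.

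Within the allowed span of 0.75, the G, Y and R means differed by a median of 0.46 on the log2(TPM + 1) scale, close to the median of 0.48 for the 13395 others at 5 TPM or more in these periods. A span of at most 0.25 was found in 32 members and of at most 0.5 in 104. The 2 most even at a mean of 50 TPM or more were Cluster-64249.119551, with a span of 0.0785, and Cluster-64249.133335, with 0.0885, and they were also the only members under 0.1. Cluster-64249.119551 averaged 137 ± 24.2 TPM in G, 143 ± 9.37 TPM in Y and 138 ± 17.6 TPM in R, against 30.7 ± 19.5 TPM in P and 29.7 ± 3.62 TPM in B (SD, n = 3 each). Cluster-64249.133335 averaged 78.0 ± 19.8, 81.9 ± 13.7 and 78.1 ± 10.1 TPM in G, Y and R, against 9.59 ± 2.66 TPM in P and 12.7 ± 4.10 TPM in B (SD, n = 3 each).

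In TPM as deposited, the members leaned towards Y. Their highest mean was in Y for 111, in G for 45 and in R for 31, and the most frequent order was Y above G above R, in 73. With the libraries rescaled by median ratios, Y was highest for 85, G for 79 and R for 23, so the lead of Y over G rests on the scaling, and without G replicate 1 the counts were 85, 73 and 29. The mean was higher in Y than in R for 146 members and lower for 41, at a median difference of 0.26 for Y minus R; over all tested the median was -0.01, and with median-ratio scaling the members' median was 0.27. For G minus R the median was 0.10, with 118 higher and 69 lower in G, and 0.22 with median-ratio scaling. For G minus Y it was -0.15, with 51 higher and 136 lower in G, and -0.03 with median-ratio scaling. For the 13395 others at 5 TPM or more in G, Y and R, the median Y minus R was 0.04. Their median was -0.10 for G minus R and -0.13 for G minus Y. With median-ratio scaling these 3 medians were 0.05, 0.04 and -0.01. The members' difference between G and Y was thus close to that of the others.

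All 3 Y values lay above all 3 R values in 71 members, or 38.0%, beside 6.81% of all tested and 17.0% of the 13395 others at 5 TPM or more in G, Y and R. They lay below them in 10, or 5.35%, beside 7.95% of all tested and 11.8% of the 13395. All 3 G values lay above all 3 R values in 31 members, or 16.6%, beside 6.59% of all tested and 15.0% of the 13395. They lay below in 19, or 10.2%, beside 11.9% and 22.7%. For G against Y, 3 members, or 1.60%, were above, beside 5.43% and 8.82%, and 29, or 15.5%, were below, beside 9.43% and 19.5%. By limma at an adjusted p under 0.05, no member was called between any pair of these periods. For G against Y the background was 0.524% of all tested called higher and 0.687% lower; for G against R it was 0.935% higher and 1.37% lower, and for Y against R 0.107% higher and 0.110% lower. At an unadjusted p under 0.05 the limma counts were 0 higher and 8 lower in G against Y. They were 10 and 5 in G against R, and 18 and 0 in Y against R. Beside these, 14811, 19140 and 10066 of all 138664 tested stood under 0.05 in the same contrasts, both directions together. The rule held these means within 0.75 of each other, so neither the calls, their absence nor the separations are read as a result.

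**Figure D4:**
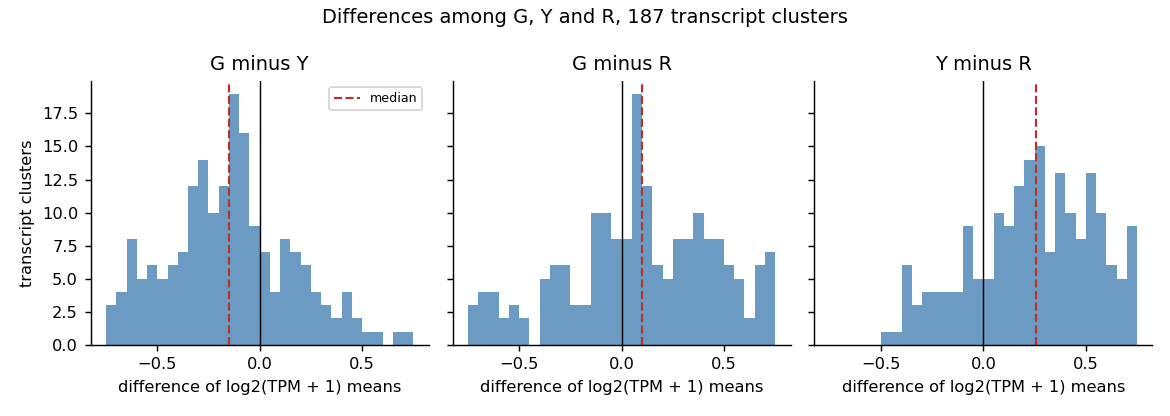
Differences between the G, Y and R period means of log2(TPM + 1) for the 187 transcript clusters, as counts per bin; the dashed red line is the median and the rule allows no difference beyond 0.75. The medians are -0.15 for G minus Y, 0.10 for G minus R and 0.26 for Y minus R.

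P against B was not a contrast of the rule, which did not set one period against the other. The rule did cap the highest of the 6 P and B values, so these values had a part in choosing the members, and the shares called are not read as a property of the group. The limma fit over 138664 transcript clusters called 3 of the 187 members higher in P, or 1.60% beside 0.211% of all tested, and 0 lower, beside 0.509% of all tested (Benjamini-Hochberg adjusted p under 0.05). All 187 passed the filter for testing, TPM of at least 1 in at least 3 libraries. The 5 TPM asked for in G, Y and R already ensured this, and 113 were also at 1 TPM or more in all 6 P and B libraries. At an unadjusted p under 0.05 (limma), 17 members were higher and 25 lower in P, beside 19483 of all 138664 tested in either direction. The small count of 3 moved with single libraries: 8 were higher without B replicate 1, and 1 without B replicate 2, B replicate 3 or P replicate 2. The number lower was 1 without B replicate 1 and 12 without P replicate 3. Without B replicate 1 and P replicate 3 together, 7 were higher and 10 lower. The share of all tested called was not computed for these fits, so the changes are not read as particular to the members.

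The 3 members called higher in P than in B were Cluster-64249.217928, Cluster-64249.119054 and the abundant Cluster-64249.115696, in falling order of difference. Their P and B values had a part in choosing them as members, so the calls are given as a description. Cluster-64249.217928 averaged 8.53 ± 1.14 TPM in P and 0.783 ± 0.569 TPM in B (SD, n = 3 each), a log2(TPM + 1) difference of 2.46 ± 0.26 (SE; limma adjusted p = 0.000862; higher in 3 of 3 P libraries than in every B library). Its limma adjusted p was from 0.000228 to 0.220 over 24 alternatives. Only the fit on the 6 P and B libraries alone took it past 0.05. That fit takes its spread from P and B only, has fewer residual degrees of freedom, and called no member. The other fits share 1 spread with G, Y and R. There the members' median within-period SD was lower, at 0.29, 0.23 and 0.14, against 0.47 in P and 0.42 in B. Cluster-64249.119054 had 24.0, 39.0 and 57.1 TPM in P against 17.8, 8.96 and 8.99 TPM in B, while it stood at 338 to 766 TPM in the G, Y and R libraries. Its difference was 1.65 ± 0.30 (SE; limma adjusted p = 0.0237), and the call was lost in 7 of 24 alternatives, over a range of adjusted p from 0.00677 to 0.412 (limma).

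For Cluster-64249.115696 the P mean was 169 ± 40.1 TPM and the B mean 60.5 ± 27.5 TPM (SD, n = 3 each), a difference of 1.53 ± 0.24 (SE; limma adjusted p = 0.0135). That call was lost in 5 of 24 alternatives, which gave adjusted p from 0.00168 to 0.332 (limma). Leaving out B replicate 2, B replicate 3 or P replicate 2 ended the limma calls of both Cluster-64249.119054 (adjusted p of 0.0991, 0.0921 and 0.0706) and Cluster-64249.115696 (0.0626, 0.0607 and 0.0503).

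The median log2(TPM + 1) difference for P minus B was -0.07 over the members, with 85 higher and 102 lower in P, and a range from -2.18 to 2.46. Over all tested it was -0.26, and over the 13395 others at 5 TPM or more in G, Y and R it was -0.29. Median-ratio scaling moved all of them upward, to 0.14 for the members, -0.12 for all tested and -0.02 for the 13395, so the sign of the members' median turned with the scaling. Of the 13395 others, only the 78 uneven ones met the ratio that set a ceiling on P and B, and the rest failed it. A ceiling removes transcript clusters with a high B or P value. The gap between members and others is therefore partly set by the rule, and nothing is read from it. Without B replicate 1 the members' median was 0.10, and without P replicate 1 it was 0.11.

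All 3 P values lay above all 3 B values in 10 members, or 5.35%, beside 2.09% of all tested and 3.58% of the 13395 others. The P values lay below in 16, or 8.56%, beside 11.1% of all tested and 22.3% of the 13395. With median-ratio scaling 23 members, or 12.3%, were above, beside 3.62% of all tested and 9.24% of the 13395, and 5, or 2.67%, were below, beside 7.17% and 8.06%. Under both scalings, most members had P and B values that did not fully separate. The same held for most of all tested and of the 13395 others, so it does not set the members apart.

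**Figure D5:**
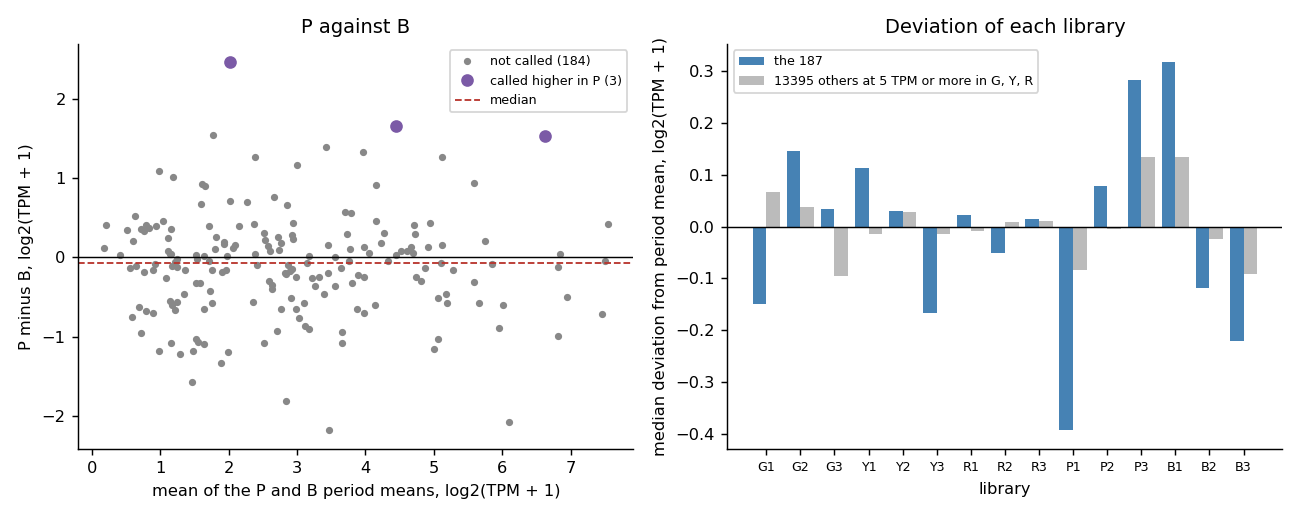
Left, P minus B difference of log2(TPM + 1) period means against their average for the 187 transcript clusters; the 3 called by limma are in purple and the dashed line is the median of -0.07. Right, median deviation of each library from its period mean for the 187 (blue) and for 13395 others at 5 TPM or more in G, Y and R (grey): P replicate 3 and B replicate 1 are high at 0.28 and 0.32, and P replicate 1 is low at -0.39.

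Single libraries moved the members together within P and B. Relative to the period mean on the log2(TPM + 1) scale, the median member lay at -0.39 in P replicate 1, 0.08 in P replicate 2 and 0.28 in P replicate 3, and at 0.32, -0.12 and -0.22 in B replicates 1, 2 and 3. P replicate 1 was below its period mean for 145 members, P replicate 3 above it for 143 and B replicate 1 above it for 161. The 13395 others moved in the same directions by less in 5 of these 6 libraries, at -0.08 in P replicate 1, 0.13 in P replicate 3 and 0.13, -0.02 and -0.09 in B replicates 1, 2 and 3; P replicate 2 was at -0.01. After median-ratio scaling the members still deviated by -0.40 in P replicate 1, by 0.29 in P replicate 3 and by 0.22 in B replicate 1.

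The highest of a member's 6 P and B values was in B replicate 1 for 78, in P replicate 3 for 43 and in P replicate 2 for 26, and the lowest was in P replicate 1 for 96. Leaving B replicate 1 out of the rule gave 254 members, 67 more than the 187, and leaving out P replicate 3 gave 215; without both, 319 qualified. All 187 remained in each of these cases, because dropping a P or B library can only loosen the rule. Within G, Y and R the lowest of the 9 values fell in G replicate 1 for 49 members, in R replicate 2 for 38, in G replicate 3 for 36 and in Y replicate 1 for none.

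Replicates were tightest in R and widest in P. The median within-period SD of a member on the log2(TPM + 1) scale was 0.29 in G, 0.23 in Y, 0.14 in R, 0.47 in P and 0.42 in B. For the 13395 others it was 0.31, 0.22, 0.17, 0.38 and 0.30 in the same order. Outside the members, P was again wider than G, Y and R, whereas B was not wider than G. Members were low in P and B, and the part of level in their spread was not tested. Deviations from period means correlated between members at a median Pearson r of 0.33 over 17391 pairs of members and 15 libraries. The pairs share libraries and scaling, so this is a description. No such value was computed for the 13395 others, so it is not read as particular to the members.

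All 187 identifiers carried the prefix 64249, as did all 13395 others at 5 TPM or more in G, Y and R, so the prefix does not set the members apart; 84.0% of all identifiers in the deposited file carried it. Second numbers of members were scattered, with 8 members lying within 5 of another member, including Cluster-64249.61495 and Cluster-64249.61498. How the numbers were assigned is not given in the sources used here.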

How the data were processed

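Pericarp mRNA of Panax japonicus was sequenced in 15 libraries, 3 for each of 5 periods. The values deposited by the authors are TPM: the name of the table says so, and each column sums to between 999997 and 1000003. Which assembler, aligner and quantifier made them is not given in the sources used here; GRCm38 and mm10 in the submitters' processing notes are mouse builds, and no identifier refers to a mouse gene. No 2 libraries held identical values. Groups follow the sample titles.

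Members were found by the rule stated above. The members, lists and tests were chosen with earlier results of these data known. Values were transformed to log2(TPM + 1). Transcript clusters at 1 TPM or more in at least 3 libraries (138664) entered 1 limma model (version 3.58.1, R 4.3.3) with 5 period means, 10 residual degrees of freedom and a variance trend. The fit was also run on simulated data. There each transcript cluster had the same spread in all periods, and changes were set only at a mean of at least 10 TPM. That run therefore cannot decide how the fit handles the wider spread in P and B or values near 0. Benjamini-Hochberg adjustment ran over all tested within each contrast; adjusted p under 0.05 was called. The naming rule took the most abundant (2), most separated (2), most even (2) and median member, the largest called P against B changes and those nearest each limit; other names were chosen after their values were seen. Alternatives were other limits in the rule, pseudocount 0.1, filters, median-ratio scaling, a replicate block, no variance trend, library weights, a fit on 6 libraries and each library left out; leaving out B replicate 1 and P replicate 3 together was added after seeing the data. Python 3.11.15 with pandas 2.3.3, NumPy 2.4.6 and matplotlib 3.10.9 served for tables and figures.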

Additional observations from a re-analysis of the deposited data

How the results depend on the processing

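The number of members depended on the limits: 363 at a ratio of 1.5, 67 at a ratio of 3, 104 with means within 0.5, and 319 without B replicate 1 and P replicate 3 together (added after seeing the data). It stayed within 1.5 times of 187 with means within 1 (223), at 3 TPM (202) or 10 TPM (154), with median-ratio scaling (160, of which 144 were among the 187) and with 1 library left out (177 to 254). Members higher in P than in B numbered 0 to 8 over all alternatives: 1 with no variance trend, 0 in the fit on 6 libraries, 7 without both libraries above, and 1 to 8 with 1 library left out. Members lower numbered 2 with a mean TPM of at least 10, 10 without both libraries above, and 0 to 12 with 1 library left out. The share of all tested called was not computed for the alternatives. The median P minus B difference ranged from -0.20 to 0.11 over single left-out libraries. Over 16567 transcript clusters with a mean of at least 10 TPM, deviations of same-numbered P and B libraries correlated at -0.01, 0.01 and -0.02. Over all pairs of periods, same-numbered values ran from -0.10 (G and Y, replicate 1) to 0.12 (G and B, replicate 1). Between P and B, not every library correlated best with its own number, so the numbers were not treated as pairs. A replicate block gave 2 members higher in P and 0 lower, with Cluster-64249.119054 at an adjusted p of 0.0528 (limma). The cause of these changes was not tested. TPM keeps no depth, so no counting interval is given and values near 0 carry unknown error.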
